A study of Homo sapiens with 6 samples.

Results

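Histone lysine methylation enzymes were described in 8505C cells depleted of NUF2, over 10 genes of the 32985 in the deposited table. The genes are KDM2A, KDM2B, KDM1A, KDM5A, KDM5B, KDM5C, SETD7, SETD1A, SMYD3 and KMT2A. They were chosen by the rise of KDM2A and SETD7 in this same comparison of siNUF2 with siCtrl, and the other 8 were added as enzymes of the same families. The values of KDM2A and SETD7 are therefore a description with no test, and the other 8 were tested. 8505C is an established line of anaplastic thyroid cancer (ATC). The siCtrl group holds 3 libraries of cells given control siRNA, labelled WT, and the siNUF2 group holds 3 libraries of cells given NUF2 siRNA. Both groups were collected at 24 h by their titles. Knockdown was transient and used a single NUF2 siRNA sequence, so these libraries cannot tell apart loss of NUF2 from other effects of that siRNA. No source used here says whether the replicates are separate cultures, and p-values then measure only the spread between these libraries, which may be technical.

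Histone lysine methylation is written by methyltransferases, most of which carry a SET domain, and erased by demethylases, which are either amine oxidases such as KDM1A or JmjC-domain dioxygenases such as the KDM2 and KDM5 families. Methylation of lysine 4 of histone H3 marks promoters and enhancers, and methylation of lysine 36 lies along transcribed genes. KDM2A and KDM2B erase methyl groups from lysine 36 and bind unmethylated CpG dinucleotides through a CXXC zinc finger, which places them at CpG islands. The study examined trimethylation of histone H3 lysine 4 after NUF2 knockdown, and the RNA levels below are those of the enzymes that write and erase such marks. They are RNA levels only, and neither protein nor histone marks were measured in these libraries.

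The promoters of the enzymes with the largest differences are shown first, since CpG density is the feature that the CXXC domain reads. Each runs 5′ to 3′ on the strand of the gene, from 250 bases before to 50 bases after a RefSeq transcription start in GRCh38.p14, with CpG dinucleotides in capitals. The sequences are KDM2A at chr11:67119013-67119312 on the plus strand, KDM2B at chr12:121580974-121581273 on the minus strand and SETD7 at chr4:139556170-139556469 on the minus strand.
KDM2A: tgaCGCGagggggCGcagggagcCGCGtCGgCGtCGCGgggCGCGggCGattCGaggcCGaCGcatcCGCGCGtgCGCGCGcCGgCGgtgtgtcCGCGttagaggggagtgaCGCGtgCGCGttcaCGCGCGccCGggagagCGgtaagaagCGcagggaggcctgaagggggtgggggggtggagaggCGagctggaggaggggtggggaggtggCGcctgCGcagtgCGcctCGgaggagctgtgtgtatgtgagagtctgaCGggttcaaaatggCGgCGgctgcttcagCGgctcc
KDM2B: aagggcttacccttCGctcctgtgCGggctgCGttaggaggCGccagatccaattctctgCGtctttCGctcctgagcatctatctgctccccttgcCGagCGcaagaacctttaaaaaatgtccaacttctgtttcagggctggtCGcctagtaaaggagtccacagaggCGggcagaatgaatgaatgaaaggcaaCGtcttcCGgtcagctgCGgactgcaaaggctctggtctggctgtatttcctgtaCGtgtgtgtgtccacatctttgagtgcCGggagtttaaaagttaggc
SETD7: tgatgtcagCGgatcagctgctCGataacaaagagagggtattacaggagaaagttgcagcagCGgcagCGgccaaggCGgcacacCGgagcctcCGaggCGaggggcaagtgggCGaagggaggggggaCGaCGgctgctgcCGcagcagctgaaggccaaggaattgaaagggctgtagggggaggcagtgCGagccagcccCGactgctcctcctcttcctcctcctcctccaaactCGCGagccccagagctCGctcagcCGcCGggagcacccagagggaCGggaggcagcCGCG
The KDM2A window held 44 CpGs, the KDM2B window 15 and the SETD7 window 22, against a median of 14 over the 35116 human promoters of this length. The KDM2A count stood at percentile 96.2 of these promoters, SETD7 at percentile 63.3 and KDM2B at percentile 51.8. At least 1 CpG was present in 96.0% of all promoters. KDM2B has 4 listed starts, and the window shown is the outermost, at the end of the gene in the deposited annotation. The SETD7 window lies inside the gene of that annotation, whose 5′ end is at 139606699. The 3 other KDM2B windows held 46, 33 and 15 CpGs, and a second KDM2A start, inside the gene, held 12. The windows of the 7 other enzymes held between 5 and 36 CpGs. DNA methylation was not measured, and the letters say nothing of which start these cells use.

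NUF2 itself, a kinetochore component, was measured at 14.8, 14.5 and 12.2 FPKM (a level scaled by transcript length and sequencing depth) in the siCtrl libraries and at 1.53, 2.05 and 1.56 FPKM in the siNUF2 libraries. The mean after knockdown was 12.4% of control, a log2 fold change of -2.99 ± 0.17 (SE, n = 3 against 3, adjusted p = 0.00051, edgeR quasi-likelihood test). Library totals ran from 61257859 to 69755291 counts. The mitochondrial share of counts was 5.46% to 6.70% in siCtrl and 6.54% to 7.06% in siNUF2. Of 12 G2/M genes, edgeR called 0 changed, with 1 at an unadjusted p under 0.05 and 0 by DESeq2. Over all genes those shares were 3.99%, 18.2% and 8.47%, so that 0 of 12 says little. The summed level of the 12 was 610 to 630 FPKM in siCtrl and 590 to 630 FPKM in siNUF2. With the replicate number as a block, CENPF, a kinetochore protein of G2/M, was called higher (log2 fold change 0.30, adjusted p = 0.15 without the block and 0.025 with it). CDK1, the mitotic kinase, had the lowest log2 fold change of these genes (-0.21 ± 0.10, adjusted p = 0.31). The cell line's origin was checked against thyroid markers. TG, SLC5A5, FOXE1 and DIO1 were each under 0.1 FPKM in every library, PAX8 was at 0.575 FPKM in siCtrl, and NKX2-1 was at 18.6 FPKM. CDH1 was listed at 0 in siCtrl, while VIM was at 498.7 FPKM and KRT8 at 89.4 FPKM. Of 10 markers of leukocytes, endothelium and fibroblasts, 5 were under 1 FPKM in every library, and the summed level was 8.87 to 11.2 FPKM in siCtrl and 6.89 to 13.0 FPKM in siNUF2. CD68, a lysosomal protein of macrophages and other cells, was the highest at 5.69 FPKM in siCtrl and 5.32 FPKM in siNUF2. The endothelial CDH5 was at 0.762, 1.87 and 0.590 FPKM in siCtrl and at 0.496, 2.73 and 0.541 FPKM in siNUF2. The fibroblast COL3A1 was at 0.0731, 1.16 and 1.465 FPKM in siCtrl and at 0.347, 2.00 and 1.03 FPKM in siNUF2. PTPRC, which defines leukocytes, was at 0.518, 0.00532 and 0 FPKM in siCtrl and at 0.147, 0.0178 and 0.00538 FPKM in siNUF2. Of 9 marker genes tested, edgeR called 0, with 0 at an unadjusted p under 0.05 and 0 by DESeq2. Beside the same shares over all genes, 0 of 9 says little. The part of any of these measures in the results below was not tested. In bulk RNA, a change in the number of cells of one state and a change in RNA per cell cannot be told apart.

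The lysine 36 erasers KDM2A and KDM2B were both higher in every siNUF2 library than in any siCtrl library. KDM2A was at 4.85, 5.06 and 5.11 FPKM in siCtrl and at 9.24, 6.19 and 7.76 FPKM in siNUF2, from 3946 to 7430 counts per library. The control libraries lay within a CV of 2.74%, whereas the knockdown libraries spread over a CV of 19.7%, with replicate 1 highest and replicate 2 lowest. The means were 5.01 ± 0.14 and 7.73 ± 1.53 FPKM (SD, n = 3 each), a ratio of 1.54 and a log2 fold change of 0.64 ± 0.14 (SE). The value stayed between 0.51 without siNUF2 replicate 1 and 0.78 without siNUF2 replicate 2. Within a replicate number, the log2 difference in CPM (counts scaled to library size) was 0.93 for number 1, 0.33 for number 2 and 0.62 for number 3. The KDM2A locus (ENSG00000173120) spans 67119263 to 67258082 on chromosome 11 of GRCh38 and overlaps 2 genes on the other strand, and no source used here says whether counting used strand.

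KDM2B, the paralogue that recruits a variant Polycomb repressive complex 1 (PRC1) to CpG islands, rose from a lower base. It was at 0.983, 0.929 and 0.934 FPKM in siCtrl and at 1.91, 1.66 and 1.71 FPKM in siNUF2. All siNUF2 libraries were above all siCtrl libraries by a gap wider than the spread within either group. The means were 0.949 ± 0.030 and 1.76 ± 0.13 FPKM (SD, n = 3 each), and the log2 fold change was 0.91 ± 0.12 (SE, adjusted p = 0.00895, edgeR). Although the FPKM was low, between 949 and 2023 counts lay behind each value. KDM2B reached the filter (a mean of 1 FPKM over all libraries) only through its siNUF2 level. With no filter the adjusted p was 0.0258. The call was lost without siNUF2 replicate 1 (log2 fold change 0.85, adjusted p = 0.0514) and with limma on log2(FPKM + 0.1), where the difference was 0.83 (adjusted p = 0.0568). KDM2B (ENSG00000089094) spans 121429096 to 121581023 on chromosome 12 and overlaps KDM2B-DT and MIR7107.

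**Figure D1:**
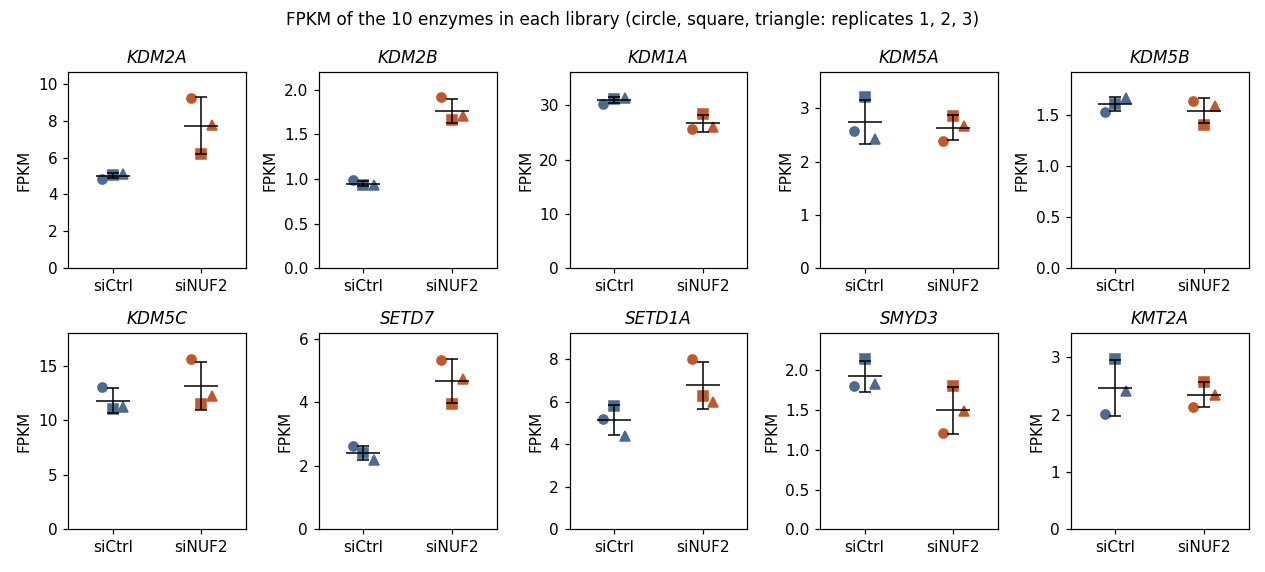
FPKM (vertical axes, each from 0) of the 10 enzymes in the 3 siCtrl and 3 siNUF2 libraries, with the mean (long dash) and SD (bars). KDM2A, KDM2B, SETD7 and SETD1A were higher in all siNUF2 libraries than in any siCtrl library, KDM1A was lower in all, and the other 5 overlapped. KDM2A and SETD7 were chosen because they rose. Over all genes tested, 10.5% were separated upwards and 13.4% downwards.

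KDM1A, KDM5A, KDM5B and KDM5C were counted here as the 4 lysine 4 erasers among the 10 enzymes, and KDM2B was left out of this count. Of the 4, edgeR called 0 changed, with 0 at an unadjusted p under 0.05 and 0 by DESeq2. The shares over all genes tested were 3.99%, 18.2% and 8.47%, so that 0 of 4 says little. The summed level of the 4 was 46.6 to 47.5 FPKM in siCtrl and 42.5 to 45.3 FPKM in siNUF2. KDM1A (LSD1), the amine oxidase of the CoREST complex, was the most abundant of the 10 enzymes. It was at 30.3, 31.1 and 31.3 FPKM in siCtrl and at 25.6, 28.4 and 26.0 FPKM in siNUF2. The groups did not overlap and the siNUF2 mean was 86.4% of control, but the log2 fold change of -0.19 ± 0.09 (SE) did not pass the test (adjusted p = 0.314, edgeR). KDM5A, a JmjC demethylase of lysine 4 first found as a partner of the retinoblastoma protein, was at 2.58, 3.21 and 2.43 FPKM in siCtrl and at 2.39, 2.86 and 2.67 FPKM in siNUF2. KDM5B, its paralogue, was at 1.53, 1.61 and 1.67 against 1.63, 1.40 and 1.59 FPKM. Both overlapped between groups, with log2 fold changes of -0.03 ± 0.14 (adjusted p = 0.94) and -0.04 ± 0.10 (adjusted p = 0.904). The X-linked KDM5C was at 13.1, 11.1 and 11.2 FPKM in siCtrl and at 15.7, 11.5 and 12.2 FPKM in siNUF2. Replicate 1 was highest in both groups, the groups overlapped, and the log2 fold change was 0.18 ± 0.13 (adjusted p = 0.563).

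Among the writers, SETD7, a SET-domain enzyme that puts a single methyl group on lysine 4 and also methylates other proteins, was the enzyme with the highest ratio. It was at 2.62, 2.40 and 2.17 FPKM in siCtrl and at 5.33, 3.95 and 4.75 FPKM in siNUF2. No siNUF2 library fell below any siCtrl library, and the 2 groups were separated by 1.33 FPKM at their nearest values. The means were 2.40 ± 0.22 and 4.68 ± 0.70 FPKM (SD, n = 3 each), a ratio of 1.95 and a log2 fold change of 0.98 ± 0.13 (SE). It stayed between 0.89 and 1.09 when any 1 library was left out. By replicate number the log2 difference was 1.03, 0.76 and 1.14. SETD7 (ENSG00000145391) spans 139495941 to 139606699 on chromosome 4, and 3 genes on the other strand overlap it, FTH1P24 among them.

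SETD1A, the catalytic subunit of a complex that trimethylates lysine 4, was at 5.22, 5.79 and 4.38 FPKM in siCtrl and at 8.03, 6.29 and 6.01 FPKM in siNUF2. All siNUF2 values were above all siCtrl values, the nearest pair being 5.79 and 6.01 FPKM. The log2 fold change of 0.42 ± 0.15 (SE) did not pass the test (adjusted p = 0.194, edgeR), and it passed with the replicate number as a block (0.42, adjusted p = 0.0441). KMT2A (MLL1), the lysine 4 writer of developmental genes, was at 2.00, 2.97 and 2.41 FPKM in siCtrl and at 2.14, 2.56 and 2.34 FPKM in siNUF2. Its groups overlapped, replicate 2 was highest in both, and the log2 fold change was -0.05 ± 0.15 (adjusted p = 0.919). SMYD3, a SET and MYND domain enzyme that methylates both histone and other proteins, was at 1.80, 2.14 and 1.83 FPKM in siCtrl and at 1.21, 1.80 and 1.48 FPKM in siNUF2. The siNUF2 replicate 2 lay just above the lowest control library, and the log2 fold change was -0.34 ± 0.20 (adjusted p = 0.438).

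Across the 8 tested enzymes outside the choice, edgeR called 1 higher (KDM2B) and 0 lower, where 1.53% of the 11725 genes tested were called higher, 2.46% lower and 3.99% in either direction. Since KDM2B entered the test only through its siNUF2 level, nothing is read from that count or from those below that include KDM2B. At an unadjusted p under 0.05 there were 2 of the 8, beside 18.2% of all genes tested. DESeq2 also called 1 of the 8, beside 8.47% of the genes to which it gave an adjusted p. With the replicate number as a block, 2 of the 8 were called (KDM2B and SETD1A), against 14.5% of all genes tested. For the rest of the 8, the adjusted p of edgeR with the block ran from 0.112 (KDM1A) to 0.889 (KDM5A). Among the 8, FPKM did not overlap between groups for 2 genes that were higher and 1 that was lower, where 10.5% of all genes tested were separated upwards, 13.4% downwards and 23.9% in either direction. The median log2 fold change of the 8 was -0.03, beside 0.01 over all genes tested.

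**Figure D2:**
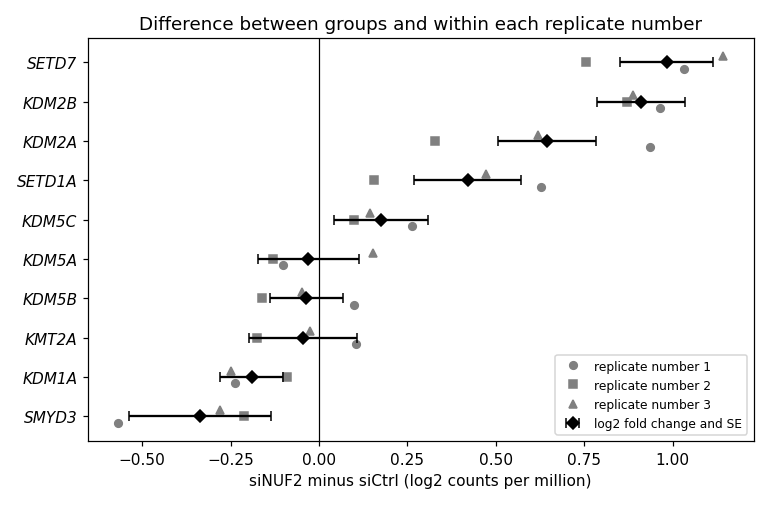
Log2 difference in CPM (siNUF2 minus siCtrl, horizontal axis) for each enzyme, with grey marks for the 3 replicate numbers and black diamonds for the fitted log2 fold change with its SE. Marks of KDM2A, KDM2B, SETD7, SETD1A and KDM5C lay above 0 at every number, and those of KDM1A and SMYD3 below 0.

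FPKM is scaled by transcript length and so allows the enzymes to be ordered. In siCtrl the order was KDM1A at 30.9 FPKM, KDM5C at 11.8, SETD1A at 5.13, KDM2A at 5.01, KDM5A at 2.74, KMT2A at 2.46, SETD7 at 2.40, SMYD3 at 1.92, KDM5B at 1.60 and KDM2B at 0.949. Neighbours overlapped for SETD1A with KDM2A, KDM5A with KMT2A, and KMT2A with SETD7, and all other neighbours were apart in every library. In siNUF2, KDM2A at 7.73 FPKM followed KDM5C and overlapped SETD1A at 6.77 FPKM, whereas SETD7 at 4.68 FPKM stood apart from KDM5A at 2.64 FPKM, and KDM2B at 1.76 FPKM stood apart from KDM5B at 1.54 FPKM. SMYD3 was then the lowest and overlapped KDM5B. Among all genes tested, the SETD7 level was at percentile 21.6 in siCtrl and 42.5 in siNUF2, while KDM1A stood at percentile 89.5 and then 87.5.

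The replicates of a number moved together in part. For 6 of the 10 enzymes (KDM2B, KDM5A, KDM5C, SETD7, SMYD3 and KMT2A) the highest library had the same number in both groups. For KDM2A it was number 3 in siCtrl and number 1 in siNUF2. KDM5C, KDM2B and SETD7 were highest in number 1, and KDM5A, KMT2A and SMYD3 in number 2.

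The genes most like KDM2A over the 6 libraries, by Pearson's r of log2 CPM, were H2BC5 (0.997), APBA2 (0.995) and VGLL4 (0.993). H2BC5, a histone H2B gene, was at 3.05, 3.41 and 3.15 FPKM in siCtrl and at 10.8, 5.23 and 7.56 FPKM in siNUF2, with the same order of the siNUF2 libraries as KDM2A, and it belongs to a family of near-identical genes whose reads could be split. APBA2, an adaptor that binds the amyloid precursor protein, was at 3.29, 3.51 and 3.39 FPKM in siCtrl and at 6.13, 4.24 and 4.95 FPKM in siNUF2. VGLL4, a cofactor of TEAD transcription factors, was at 2.66, 2.57 and 2.57 FPKM in siCtrl and at 6.01, 3.40 and 4.96 FPKM in siNUF2. The genes most like SETD7 were ERLIN2 (0.996), GPATCH3 (0.995) and TEX2 (0.993), and their log2 fold changes were 0.76, 0.74 and 0.39. Among the enzymes, SETD7 and KDM2B had an r of 0.983, KDM2A and SETD7 of 0.950, KDM2A and KDM2B of 0.927, and KDM2A and KDM1A of -0.972. These correlations are descriptions over 6 libraries that share the difference between the groups and the library depth, and the highest of 11724 were taken for each gene.

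Wider lists of writers and erasers were set by family name, and activity of each protein on histone lysine was not checked. Of 35 other lysine methyltransferases, 33 were found by name and 32 were tested, of which edgeR called 1 higher and 1 lower, beside 1.53% and 2.46% of all genes tested. EZH1, a catalytic subunit of Polycomb repressive complex 2 (PRC2), was at 6.09, 5.93 and 5.43 FPKM in siCtrl and at 9.34, 8.70 and 7.26 FPKM in siNUF2, a log2 fold change of 0.56 ± 0.12 (adjusted p = 0.0414). SMYD2, a relative of SMYD3 that methylates p53 among other proteins, was at 6.97, 4.76 and 6.31 FPKM in siCtrl and at 3.30, 2.72 and 3.62 FPKM in siNUF2, a log2 fold change of -0.88 ± 0.18 (adjusted p = 0.0361). Both sets of libraries were apart between groups. The EZH1 call was lost without any 1 library other than siNUF2 replicate 3 (adjusted p from 0.105 to 0.157), and the SMYD2 call without any 1 other than siCtrl replicate 2 (0.0654 to 0.126). DESeq2 called 3 of the 32 (8.47% of the 11481 genes to which it gave an adjusted p) and the replicate block 4 (14.5% of all genes tested). The median log2 fold change of the list was 0.10.

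Of 18 other lysine demethylases 14 were tested, and edgeR called 0, with 0 at an unadjusted p under 0.05, 0 by DESeq2 and 0 with the replicate block, where those shares over all genes were 3.99%, 18.2%, 8.47% and 14.5%. RIOX1, a nucleolar JmjC oxygenase, had the highest log2 fold change (0.34 ± 0.24, adjusted p = 0.525) and JMJD6, a JmjC oxygenase of the nucleus, the lowest (-0.31 ± 0.15, adjusted p = 0.338). The median of the list was -0.08, and its summed level was 68.1 to 75.5 FPKM in siCtrl and 63.7 to 74.7 FPKM in siNUF2.

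**Figure D3:**
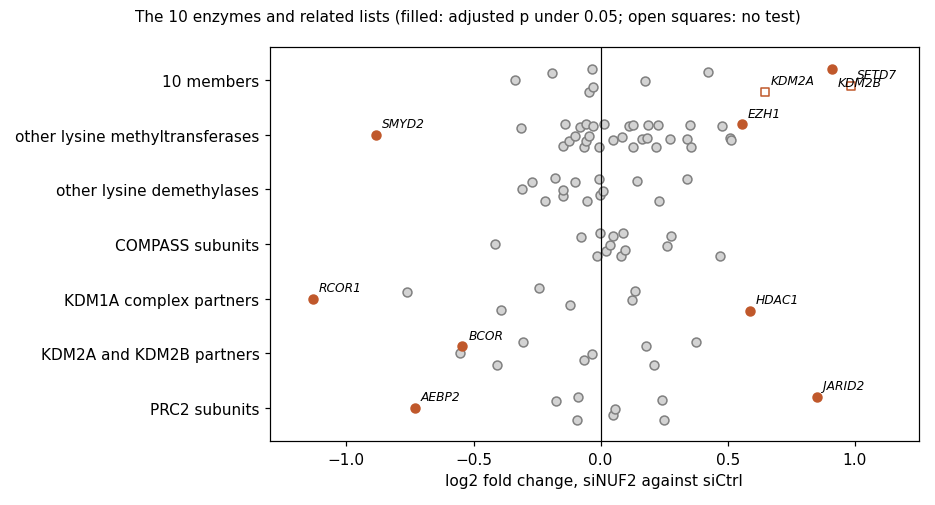
Log2 fold change (siNUF2 against siCtrl, horizontal axis) of the 10 enzymes and of each tested gene in 6 related lists, with vertical scatter only to separate points. Filled orange points passed an adjusted p of 0.05, and open squares are KDM2A and SETD7, which were not tested. KDM2B entered the test only through its siNUF2 level.

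Partners of these enzymes were taken as 4 lists with 41 genes, of which 39 were tested. edgeR called 2 higher and 3 lower, with a median log2 fold change of 0.02, beside 1.53% and 2.46% of all genes tested. DESeq2 called 9 of the 39, beside 8.47% of genes, and the replicate block 14, beside 14.5%. The lists were not tested as sets. In the KDM1A complex, RCOR1 (CoREST), the scaffold that joins KDM1A to nucleosomes, fell and HDAC1, a deacetylase of the complex, rose. Of the 8 genes tested in this list edgeR called 2, beside 3.99% of all genes tested. DESeq2 called 3, beside 8.47% of genes, and the replicate block 4, beside 14.5%. Nothing is read from these counts. RCOR1 was at 11.3, 12.5 and 11.5 FPKM in siCtrl and at 5.02, 5.00 and 5.85 FPKM in siNUF2, the lowest log2 fold change of any list gene (-1.13 ± 0.11, adjusted p = 0.00255). No replicate left out ended that call, and the adjusted p then ran from 0.00724 to 0.0222. HDAC1 was at 26.0, 26.8 and 25.8 FPKM in siCtrl and at 37.0, 42.1 and 37.1 FPKM in siNUF2 (log2 fold change 0.59 ± 0.10, adjusted p = 0.0163). Its call was lost without siCtrl replicate 1, 2 or 3 or without siNUF2 replicate 1 (adjusted p from 0.0522 to 0.0716). HDAC2 and ZMYM2, named after their values were seen, were called in edgeR with the replicate block and not without it. DESeq2, which used no block, called ZMYM2 (adjusted p = 0.0127) and not HDAC2 (adjusted p = 0.206). HDAC2, the other deacetylase, was at 14.9, 16.8 and 14.0 FPKM in siCtrl and at 12.5, 13.3 and 12.2 FPKM in siNUF2 (log2 fold change -0.24 ± 0.10, adjusted p = 0.251, and 0.0469 with the replicate block). ZMYM2, a zinc finger protein found with this complex, was at 2.62, 4.06 and 2.72 FPKM in siCtrl and at 1.44, 2.39 and 1.61 FPKM in siNUF2 (-0.76 ± 0.24, adjusted p = 0.144, and 0.00261 with the block).

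The partners of KDM2A and KDM2B include the F-box adaptor SKP1 and the subunits of the variant PRC1. BCOR, a corepressor of that complex, was at 5.80, 6.15 and 5.83 FPKM in siCtrl and at 4.15, 3.39 and 4.49 FPKM in siNUF2 (log2 fold change -0.54 ± 0.12, adjusted p = 0.0455). The BCOR call was lost when any 1 of the 6 libraries was left out (adjusted p from 0.0567 to 0.143). RNF2 (RING1B), the ubiquitin ligase of PRC1, had the lowest value of the 9 genes (-0.55 ± 0.14, adjusted p = 0.0864, 0.0161 by DESeq2 and 0.0337 with the replicate block). PCGF1, the subunit that defines this variant complex, had the highest (0.38 ± 0.17, adjusted p = 0.296). Of these 9 genes edgeR called 1, beside 3.99% of all genes tested. DESeq2 called 3, beside 8.47% of genes, and the replicate block 3, beside 14.5%. The list was not tested as a set, and nothing is read from these counts.

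In PRC2, which methylates lysine 27 of histone H3, JARID2 and AEBP2 differed in opposite directions. They are a pair of accessory subunits found in the same form of the complex. Of the 9 genes tested in this list, edgeR called only this pair and not the other 7, beside 3.99% of all genes tested. DESeq2 called 2, beside 8.47% of genes, and the replicate block 3, beside 14.5%. Nothing is read from these counts. JARID2 was at 2.62, 3.10 and 2.74 FPKM in siCtrl and at 5.40, 5.10 and 4.55 FPKM in siNUF2 (log2 fold change 0.85 ± 0.13, adjusted p = 0.0127). AEBP2 was at 3.13, 4.50 and 3.86 FPKM in siCtrl and at 2.24, 2.19 and 2.39 FPKM in siNUF2 (-0.73 ± 0.16, adjusted p = 0.0438). The JARID2 call was lost without siCtrl replicate 1 or 3 or siNUF2 replicate 1 (adjusted p from 0.0538 to 0.0619), and the AEBP2 call without any library other than siCtrl replicate 1 (0.0951 to 0.153). JARID2 overlaps its antisense gene JARID2-AS1 and AEBP2 overlaps EEF1A1P4 and PDCD5P1, so reads may be shared.

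The COMPASS list holds subunits of the complexes of SETD1A, KMT2A and related writers. It gave 0 calls of 13 by edgeR, with 4 at an unadjusted p under 0.05, 1 by DESeq2 and 4 with the replicate block. Over all genes the corresponding shares were 3.99%, 18.2%, 8.47% and 14.5%. PAGR1, a subunit of the KMT2C and KMT2D complexes, had the highest log2 fold change (0.47 ± 0.15, adjusted p = 0.143, and 0.0181 with the replicate block). NCOA6, a coactivator of the same complexes, had the lowest (-0.42 ± 0.10, adjusted p = 0.0694, 0.0154 by DESeq2 and 0.015 with the block). The summed level of the 13 was 172.3 to 189.8 FPKM in siCtrl and 184.2 to 208.2 FPKM in siNUF2.

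**Figure D4:**
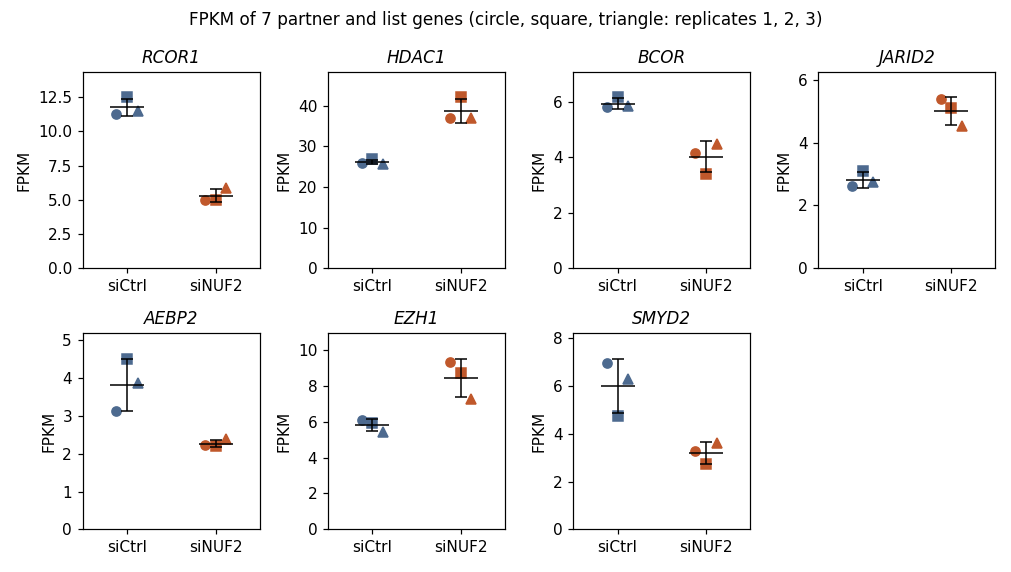
FPKM (vertical axes, each from 0) of the 7 partner and list genes with an adjusted p under 0.05, with the mean (long dash) and SD (bars) of 3 libraries per group. RCOR1, BCOR, AEBP2 and SMYD2 were lower, and HDAC1, JARID2 and EZH1 higher, in every siNUF2 library.

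The word TATGGAA, the complement of bases 2 to 8 of the guide strand against NUF2, was searched in the longest 3′ UTR of each gene in GENCODE release 44, on the strand of the mRNA. It occurred in 18.3% of the 10235 genes tested that have a 3′ UTR of at least 50 nt. The word TCGGAGA, chosen after an earlier look at these data and giving no support here, occurred in 3.31%. Of the 10 enzymes, SETD7 and KMT2A held TATGGAA once each, and KDM2B and SETD7 held TCGGAGA, at 2 places and 1 place. KDM2A held neither. The sites are shown with 9 bases on each side, so that each word can be placed in its transcript. The 7 bases of the word are in capitals.
SETD7, TATGGAA: gcattaagtTATGGAAgagttgtaa
KMT2A, TATGGAA: gcccattccTATGGAAgtctagcaa
SETD7, TCGGAGA: gtaccacatTCGGAGAtgccaaatg
KDM2B, TCGGAGA, 5′ place: acattcctgTCGGAGAggagggtgg
KDM2B, TCGGAGA, 3′ place: gggtggactTCGGAGAaattctcat
Of the 39 partners tested, 8 held TATGGAA, and of the 5 called it was 1 (AEBP2). RCOR1, HDAC1, JARID2 and BCOR did not hold this 7-base word. The shorter word ATGGAA, the complement of guide bases 2 to 7, occurred in 51.0% of the same 10235 genes. RCOR1 held it at 2 places, JARID2 at 1 and AEBP2 at 3, while HDAC1 and BCOR did not hold it. Of the 10 enzymes, KDM2B, SETD1A and SMYD3 did not hold it, and each of the others, KDM2A among them, held it at 1 place or more. A match is a word in a sequence and not a shown site.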

How the data were processed

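RNA was measured in 3 siCtrl and 3 siNUF2 libraries of 8505C cells, grouped by the labels. Per the labels and the study's methods, fastp served for quality control, HISAT2 for alignment (GRCh38) and StringTie for expression, and no version, annotation release or strand setting is given in the sources used here. The authors deposited FPKM, scaled by transcript length and depth, and whole-number counts per gene without normalization, whose counting tool is not named. All 12 columns were used. The members and lists were chosen with earlier results of these data known.

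Counts were fitted across the 11725 genes whose FPKM averaged 1 or more in edgeR 4.0.16 (R 4.3.3, limma 3.58.1, DESeq2 1.42.0), with TMM scaling, group as the only term, the quasi-likelihood test and Benjamini-Hochberg adjustment over all of them. A gene was called at an adjusted p under 0.05. Fold changes of siNUF2 against siCtrl are log2. Genes named are the 10 enzymes, NUF2, list genes called, the highest and lowest of each list other than cell type markers, and the 3 genes most correlated with KDM2A and with SETD7. Cell type markers were named to check the cell line, and HDAC2 and ZMYM2 after their values were seen. SMYD1, PRDM16 and TSHR were not used here. The code was tested on simulated data before use.

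Replicate pairs differed beyond sampling noise (chi-square divided by its degrees of freedom was 90.1 at the lowest), so each library counted once. Same-numbered libraries had correlated deviations from their group means over all genes tested (0.344 to 0.446). Other numbers gave -0.263 to -0.141, but deviations cancel within a group, so positive same-number values by themselves push these down. The numbers were taken to pair the libraries, although no source says what a number shares. The main fit did not use this pairing, and the fit with the replicate block is given as an alternative. GENCODE release 44 has 32855 of the 32985 gene IDs, all on the same chromosome. The promoters are from RefSeq, and all 10 enzymes matched by symbol. Alternatives were other size factors, DESeq2, other filters, the replicate block and leaving out each library. Further ones were limma on log2 FPKM with a pseudocount of 1 or 0.1, and an F-test with a pseudocount of 1 only.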

Additional observations from a re-analysis of the deposited data

How the results depend on the processing

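Leaving out any 1 library, or any other setting tried, kept the direction of KDM2A (log2 fold change 0.51 to 0.78 without 1 library), SETD7, KDM2B, KDM1A, KDM5C, SETD1A and SMYD3. SETD7 was at 0.74 with limma or the F-test on log2(FPKM + 1), since the pseudocount shrinks low values. Near-zero values turned sign for KDM5A (range -0.11 to 0.10 without 1 library, 0.10 without siCtrl replicate 2 and 0.04 without siNUF2 replicate 1), KDM5B (range -0.071 to 0.024, the latter 0.024 without siNUF2 replicate 2) and KMT2A (range -0.17 to 0.11, with 0.11 without siCtrl replicate 2 and 0.02 without siNUF2 replicate 1). With the replicate number as a paired block, calls over all genes tested went from 468 to 1705. Among other methyltransferases they went from 2 to 4 and among complex partners from 5 to 14. Among the 8 other enzymes they went from 1 to 2, with SETD1A passing the test. The 1 was KDM2B, which entered the test only through its siNUF2 level, so nothing is read from that count. Over all genes tested, DESeq2 called 972, no filter 188 and the F-test 78, and leaving out 1 library gave 124 to 251. The 8 other enzymes had 0 calls with a filter of 5 FPKM, which drops KDM2B, and 0 with limma on log2(FPKM + 0.1), and 0 to 1 without 1 library. Other methyltransferases had 0 calls with no filter and with the F-test, 1 with a filter of 5 FPKM and with limma at either pseudocount, and 0 to 1 without 1 library. Complex partners had 9 calls with DESeq2, 3 with no filter, a filter of 5 FPKM or limma at either pseudocount, 1 with the F-test, and 1 to 3 without 1 library. Other demethylases had 0 calls throughout. By construction, no filter tests more genes and leaving out a library leaves fewer samples, and the cause of the other differences was not tested.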
